A study of Mus musculus with 6 samples.

Results

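The regions described here are the accessible regions of mouse chromosome 16 between 20 and 40 Mb (mm10). Peaks of 6 ATAC-seq libraries were merged wherever they shared 1 bp or more, which gave 89410 regions, and the 1629 of them that start in this 20 Mb segment are its members. A further 2036 regions lay elsewhere on chromosome 16 and 85745 on the other chromosomes. The segment was chosen by its loss of peaks in the knockout libraries, so every comparison of the groups inside it is a description with no test. At its left limit, the last region outside it (19979420 to 19980353) had peaks in 3 f/f and 0 KO libraries, and the first inside it (20020395 to 20020650) in 1 f/f library. At its right limit, the last region inside it (39430203 to 39430463) had peaks in 2 KO libraries, and the next region started at 40968114.

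The libraries came from OB Fam20c f/f, an immortalized mouse osteoblast line with floxed alleles of Fam20c, a secretory pathway kinase, and from OB Fam20c KO, made by infecting that line with a lentivirus for Cre recombinase. Each group had 3 libraries, from cells grown in αMEM with FBS and with no other treatment in the labels. The KO is thus 1 derived line, and the replicate libraries measure the spread between libraries of a line, which may be technical. The lists held 64033, 62781 and 74797 peaks in the f/f libraries and 64141, 64582 and 32958 in the KO libraries, so that OB Fam20c KO replicate 3 was by far the shortest. Of 9 osteoblast genes, 7 had a region in their span, among them Runx2, Sp7, Alpl and Col1a1, and Bglap and Ibsp had none. Of 7 genes that mark other cell types, Alb and Pou5f1 had no region, the others had 1 to 3 in their span, and none had a peak at a known start. The start of Fam20c had a peak in all 6 libraries, and peak lists do not check the deletion.

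ATAC-seq finds DNA that the Tn5 transposase can reach, which is mostly nucleosome-poor DNA at promoters, enhancers and other regulatory elements. Promoters of widely used genes are open in most cells, while elements away from gene starts differ more between cell types and are usually weaker. A peak is listed when its reads exceed the local background, so that a missing peak means that the threshold was not passed at the depth of that library and does not by itself mean closed chromatin. Lost is used below for a region that the f/f lists held and the KO lists did not. Peak lists carry no absolute signal, so that a lower signal in KO and a higher one in f/f cannot be told apart, and DNA copy number was not measured.

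The promoters that carry the contrast most plainly are shown first. They are RefSeq sequences of GRCm38.p6, the build of mm10, from 250 bases before to 50 bases after the gene start, on the strand of the gene. Both gene starts among the 10 strongest regions that were lost from all KO lists are given, followed by the first 4 gene starts among the 10 strongest regions kept in all 6. A start was taken when it lay within 1 kb of the region. The Bdh1 sequence lies outside its region, which starts at 31429119, while the others lie inside theirs. Capitals mark the letters of the motifs searched, which were TGANTCA (AP-1), CANNTG (E-box) and GGGCGG or CCGCCC (GC box), on both strands. Cldn1 encodes claudin-1 of tight junctions (chr16:26371790-26372089, minus strand), and Maats1 a protein of motile cilia (chr16:38341811-38342110, minus strand). Bdh1 encodes a mitochondrial enzyme of ketone bodies (chr16:31428503-31428802, plus strand), Ephb3 an ephrin receptor (chr16:21204545-21204844, plus strand), Acap2 a regulator of the small GTPase Arf6 (chr16:31201189-31201488, minus strand), and Vps8 a tethering factor of endosomes (chr16:21422868-21423167, plus strand).
Cldn1: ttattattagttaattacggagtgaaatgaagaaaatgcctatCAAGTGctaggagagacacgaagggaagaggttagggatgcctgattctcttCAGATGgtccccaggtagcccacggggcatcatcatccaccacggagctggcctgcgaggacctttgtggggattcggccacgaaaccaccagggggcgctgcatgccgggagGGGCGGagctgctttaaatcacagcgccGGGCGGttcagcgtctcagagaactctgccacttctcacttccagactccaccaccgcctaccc
Maats1: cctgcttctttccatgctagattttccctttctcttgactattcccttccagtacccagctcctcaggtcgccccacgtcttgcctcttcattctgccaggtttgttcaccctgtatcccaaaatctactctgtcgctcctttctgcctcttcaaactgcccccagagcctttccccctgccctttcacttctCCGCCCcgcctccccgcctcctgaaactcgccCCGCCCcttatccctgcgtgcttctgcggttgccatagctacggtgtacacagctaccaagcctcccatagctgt
Bdh1: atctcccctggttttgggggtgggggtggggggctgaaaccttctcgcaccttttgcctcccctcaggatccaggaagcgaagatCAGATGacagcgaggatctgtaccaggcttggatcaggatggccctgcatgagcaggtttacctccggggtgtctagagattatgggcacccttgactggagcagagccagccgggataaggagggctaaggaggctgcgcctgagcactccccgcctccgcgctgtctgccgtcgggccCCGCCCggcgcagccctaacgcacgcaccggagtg
Ephb3: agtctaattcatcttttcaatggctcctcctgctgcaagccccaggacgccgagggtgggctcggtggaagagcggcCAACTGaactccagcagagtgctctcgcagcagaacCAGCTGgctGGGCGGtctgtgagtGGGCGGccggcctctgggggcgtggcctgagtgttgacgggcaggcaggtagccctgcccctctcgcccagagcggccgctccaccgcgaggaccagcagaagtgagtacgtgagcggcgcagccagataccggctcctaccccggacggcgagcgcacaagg
Acap2: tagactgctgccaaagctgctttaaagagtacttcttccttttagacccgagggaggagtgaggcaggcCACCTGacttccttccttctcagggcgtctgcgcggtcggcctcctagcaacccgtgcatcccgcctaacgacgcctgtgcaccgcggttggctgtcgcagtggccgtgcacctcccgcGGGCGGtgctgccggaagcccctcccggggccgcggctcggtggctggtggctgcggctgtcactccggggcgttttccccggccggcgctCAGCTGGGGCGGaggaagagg
Vps8: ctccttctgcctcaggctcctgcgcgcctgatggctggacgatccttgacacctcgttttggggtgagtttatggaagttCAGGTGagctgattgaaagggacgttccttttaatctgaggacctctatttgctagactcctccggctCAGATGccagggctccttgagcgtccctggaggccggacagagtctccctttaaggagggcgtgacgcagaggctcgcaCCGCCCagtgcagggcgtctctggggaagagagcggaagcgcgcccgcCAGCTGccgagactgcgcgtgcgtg

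Cldn1 and Maats1 held 2 GC boxes each, as did Ephb3 and Acap2, and none of the 6 held the AP-1 letters. The GC content was 56.0% for Cldn1 and 56.3% for Maats1, against 63.7% for Bdh1, 66.7% for Ephb3, 67.7% for Acap2 and 61.0% for Vps8. The segment had 318 promoter sequences. The 146 at a region listed in all 6 libraries had a median GC content of 62.3%. It was 52.5% for the 14 at an f/f-only region and 46.5% for the 126 with no region. A GC box was found in 58.9%, 35.7% and 10.3% of these sets, and in 35.7% of all 32851 promoters in the table. The AP-1 letters were found in 4.79%, 35.7% and 13.5%, against 7.81% of all promoters, and the E-box letters in 58.9%, 50.0% and 79.4%, against 72.3%. The 14 f/f-only sequences belong to 12 regions, and some genes have several starts. These 12 regions lay within 1 kb of a gene start and did not all cover it. A match is a run of letters and not a bound site.

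Fewer of the members were listed in every OB Fam20c KO library than in any OB Fam20c f/f library. Peaks were found at 1040, 1109 and 1363 members in the f/f libraries and at 687, 704 and 354 in the KO libraries, and the groups did not overlap. Scaled to the length of each list, the segment held 167.3, 180.0 and 183.0 peaks per 10000 listed peaks in f/f, a mean of 176.8 ± 8.37 (SD, n = 3). The KO libraries had 111.6, 111.8 and 112.3, a mean of 111.9 ± 0.329 (SD, n = 3), which is 0.633 of the f/f mean. The 3 KO values lay within 1 peak of each other although the KO lists held 32958 to 64582 peaks. On chromosome 16 outside the segment the values were 222.7, 224.1 and 223.7 in f/f and 227.8, 234.9 and 229.7 in KO. That part of the chromosome was not selected on the contrast, and its means of 223.5 ± 0.724 and 230.8 ± 3.68 (SD, n = 3) differed by 7.29 peaks, higher in KO in 3 of 3 libraries (exact permutation test, two-sided, p = 0.1, the smallest that 3 against 3 libraries can give). With 32958 peaks per list this difference was 14.0 (p = 0.1 by the same exact permutation test). The scaling uses whole lists, which include the segment. Its lower share in KO by itself raises the share elsewhere, and the test does not separate this.

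**Figure D1:**
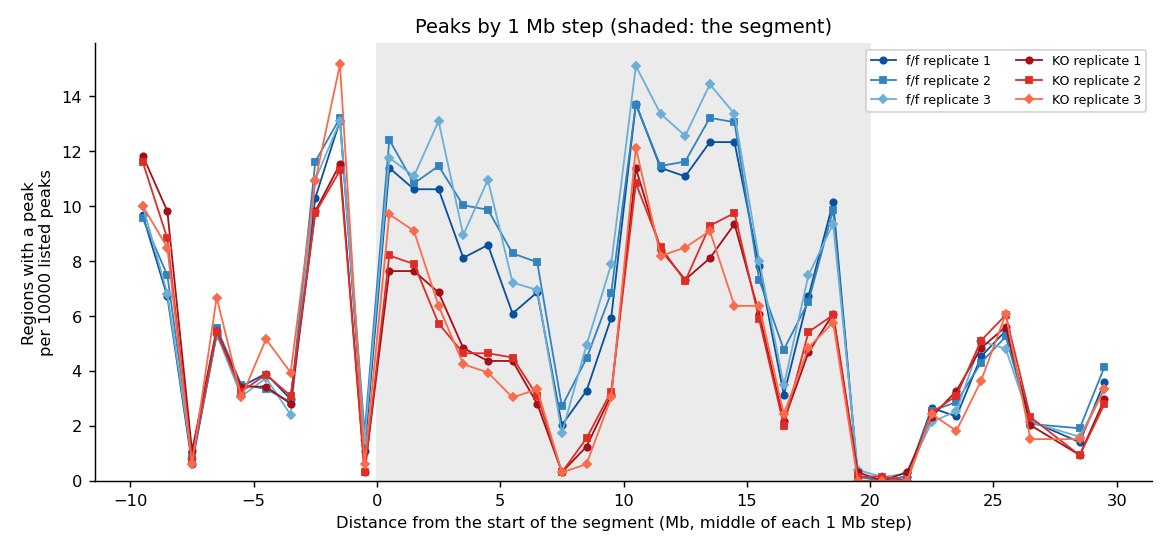
Regions with a peak per 10000 listed peaks in each 1 Mb step of chromosome 16, by library, against the distance from the start of the segment in Mb. Circles, squares and diamonds are replicates 1, 2 and 3, blue for f/f and red for KO. Within the shaded segment all 3 KO lines run below all 3 f/f lines in the 19 steps with 10 or more regions, and to the right of it the groups mix.

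A region is called f/f-only here when all 3 f/f libraries and none of the 3 KO libraries had a peak, and KO-only for the reverse. Of the 849 members listed in all 3 f/f libraries, 178 were f/f-only, or 21.0% (95% exact binomial interval 18.3 to 23.9, counting error only). Over the whole series 6.25% of such regions were f/f-only, and on chromosome 16 outside the segment it was 75 of 1211, or 6.19%. Of the other members of the 849, 82 kept a peak in 1 KO library, 246 in 2 and 343 in all 3. OB Fam20c KO replicate 3 had little part in the f/f-only count, which was 179 without it. Most f/f-only regions were weak in the f/f lists. When each list was cut to its 32958 strongest peaks, 95 of 474 members were f/f-only, or 20.04%, against 3.91% on the other chromosomes, and only 8 of them were among the 178.

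The reverse was rare. Of the 345 members listed in all 3 KO libraries, 1 was KO-only, and over the series 0.523% were, so the count is near the background. It was 4 without OB Fam20c KO replicate 3, 2 without OB Fam20c KO replicate 1 or OB Fam20c f/f replicate 3, 5 with a peak in 2 or more of 3 libraries and 6 with windows around the summits. This region (30499355 to 30499897) lies 11958 bp from Tmem44, with −log10 q of 3.15, 6.48 and 2.66 in the KO lists, close to the threshold. A peak in some KO library and in no f/f library was found at 33 members, or 2.03%, against 11.1% of regions on the other chromosomes. A peak in some f/f library and in no KO library was found at 853, or 52.4%, against 19.8%. Of these 853, 508 were listed in 1 f/f library and 167 in 2.

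Promoters were kept more often than distal regions. A region counted as promoter when it lay within 1 kb of a RefSeq gene start, which applied to 159 members, and as distal otherwise, which applied to 1470. Starts were known for 165 of the 194 protein-coding genes of the segment, so a region at an unknown start could count as distal. The f/f libraries listed 145, 144 and 154 of the promoter regions and the KO libraries 134, 132 and 110. The distal regions were listed 895, 965 and 1209 times in f/f and 553, 572 and 244 times in KO. For neither kind did the counts of the groups overlap, and the gap was wider for distal regions. A wider distal gap was also seen on the other chromosomes. Of distal regions listed there in all 3 f/f libraries, the KO libraries kept 88.5%, 89.6% and 47.5%. Of promoters they kept 97.7%, 97.7% and 87.5%. In the segment these shares were 70.0%, 71.2% and 33.3% for distal regions and 91.4%, 91.4% and 78.6% for promoters. Of promoter regions listed in all 3 f/f libraries, 12 of 140 were f/f-only, or 8.57% (4.51 to 14.5), where the series had 1.73%. Of distal ones, 166 of 709 were f/f-only, or 23.4% (20.3 to 26.7), against 7.17% on the other chromosomes. Among regions listed in all 3 f/f libraries, 78.6% of the promoter and 32.9% of the distal ones had a peak in all 6. On the other chromosomes it was 87.5% and 47.3%.

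The lost regions were mostly weak in the f/f lists. Standing is the percentile of a region by its −log10 q within a list, with 100 the highest, and regions listed in all 3 f/f libraries were split into 4 equal classes of the mean f/f standing. In the lowest class 54.1% of the segment's regions were f/f-only, against 19.5% on the other chromosomes. The next classes gave 27.3% against 4.20%, and 2.27% against 0.363%. In the highest class 1 of 268 was f/f-only in the segment, the start of Cldn1, and 3 of 12840 on the other chromosomes. Split by kind, 7 of 15 promoter and 119 of 218 distal regions of the lowest class were f/f-only, 3 of 13 and 44 of 159 of the second, 1 of 9 and 3 of 167 of the third, and 1 of 103 and 0 of 165 of the highest. The promoter counts below the highest class are too small for a comparison. The promoters of the segment lay mostly in the highest class, with 103 of 140, while 165 of 709 distal regions did.

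**Figure D2:**
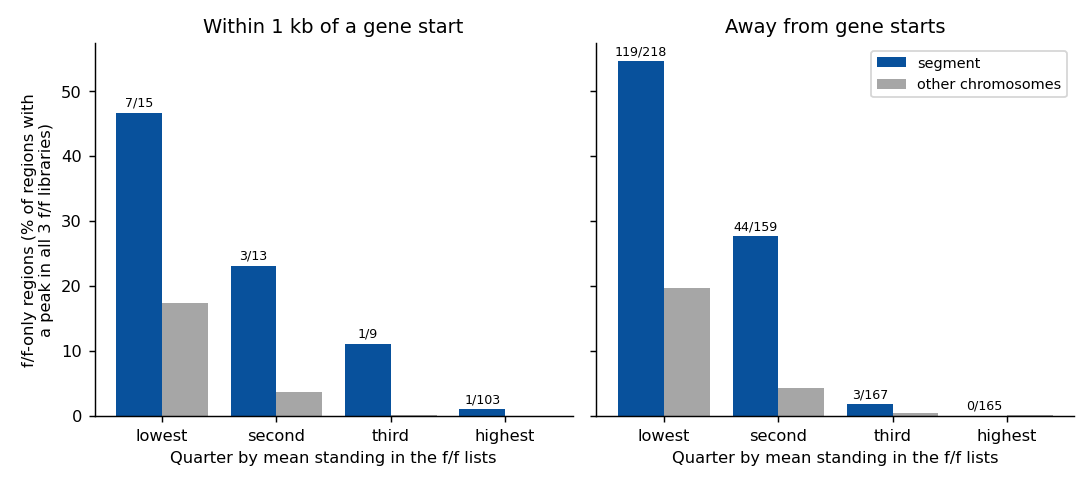
Share of f/f-only regions, in % of regions listed in all 3 f/f libraries, by class of mean standing in the f/f lists (lowest to highest). Blue bars are the segment with its counts above them and grey bars the other chromosomes, with promoters on the left and distal regions on the right; the blue bar is taller in every class except the highest distal one, where it is 0 of 165.

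Regions that kept a peak in all 6 libraries stood lower in the KO lists as well. With the percentile taken among the 29849 such regions of the series, the 343 of the segment had, by −log10 q, a median standing of 80.7, 78.6 and 78.7 in f/f and of 51.2, 52.2 and 49.3 in KO, 28.5 points lower. For chromosome 16 outside the segment the medians ranged from 49.7 to 51.5 over the 6 libraries. The KO medians of the segment were thus near the middle of the lists and the f/f medians far above it. At 291 of the 343, or 84.8%, every KO library stood below every f/f library, where 20.9% of shared regions did over the series, and at 9 every KO library stood above. The 110 promoters fell from a mean of 97.6 ± 0.549 to 80.0 ± 3.24 (SD, n = 3), and the 233 distal regions from 67.2 ± 1.49 to 37.9 ± 0.739. By the authors' fold over the local background the picture was weaker. The medians were 60.7, 57.7 and 58.6 in f/f and 52.0, 51.4 and 53.8 in KO, and for promoters the KO mean was 5.03 points above that of f/f, with overlapping libraries. Shared regions had to be strong enough to be listed in KO, so these values leave the lost regions out.

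**Figure D3:**
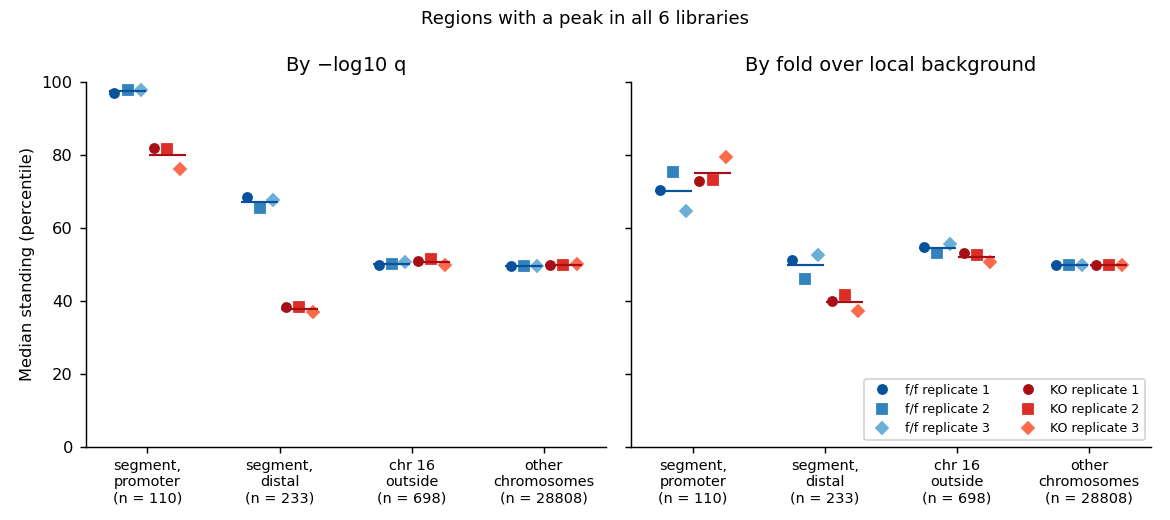
Median standing (percentile) of regions with a peak in all 6 libraries, by −log10 q on the left and by fold on the right, for promoters and distal regions of the segment, the rest of chromosome 16 and the other chromosomes. Each symbol is a library and each line a group mean; by −log10 q the f/f and KO symbols separate in the segment and coincide outside it, while by fold the promoters overlap.

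The peaks of the segment differed from the rest of their own list in the f/f libraries and hardly in the KO libraries. The median fold over background was 5.74, 4.16 and 4.79 inside the segment in f/f, against 7.03, 5.44 and 6.25 on the other chromosomes. In KO it was 6.98, 7.03 and 5.71 inside, against 6.98, 7.02 and 5.58. The median −log10 q was 20.1, 16.2 and 20.01 inside and 23.2, 22.3 and 30.8 elsewhere in f/f, and 30.0, 36.8 and 16.1 inside and 29.2, 35.6 and 15.3 elsewhere in KO. Promoters made up 13.9%, 12.98% and 11.3% of the listed members in f/f, against 18.98%, 19.1% and 16.7% elsewhere, and 19.5%, 18.8% and 31.1% in KO, against 19.005%, 18.6% and 31.3%. In all 3 f/f libraries the peaks of the segment were thus weaker and more often distal than those of the rest of the list, and the KO libraries showed little of this.

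The loss ran through the whole segment. A 1 Mb step with 10 or more regions is called depleted when every KO library lies below every f/f library in regions with a peak per 10000 listed peaks, which held for 17.2% of steps over the series, with 13.3% elevated. In the segment 19 of 19 such steps were depleted and none elevated, and outside it on chromosome 16, 7 of 49 were depleted and 10 elevated. The ratio of the KO mean to the f/f mean ran from 0.143 in the step from 27 to 28 Mb to 0.807 in the step from 30 to 31 Mb, with a median of 0.609, against 1.04 over the steps outside. By the median standing of the listed peaks, 1 of the 19 steps was depleted.

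The steps fell into 3 stretches, set after their values were seen. From 20 to 26 Mb, 63 of 288 regions listed in all 3 f/f libraries were f/f-only, or 21.9%, and all 63 were distal, while none of the 42 promoters was. From 26 to 30 Mb it was 43 of 86, or 50.0%, with 7 of 13 promoters. In that stretch the f/f libraries had peaks at 116, 138 and 161 regions and the KO libraries at 48, 53 and 24. From 30 to 40 Mb it was 72 of 475, or 15.2%, with 5 of 85 promoters.

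The left border was graded and the right one fell in a gap. The unbroken run of depleted steps reached from 19 to 39 Mb, which takes in 1 step to the left of the segment, where 3 of 5 regions were f/f-only. Further left, the windows of 0.5 Mb from 17.5 to 19 Mb had 4 of 43, 5 of 49 and 4 of 24 f/f-only regions, and their shared regions stood lower in KO by a median of 10.4, 10.6 and 13.1 points. From 17 to 17.5 Mb it was 0 of 19, with shared regions 2.66 points lower in KO. From 16.5 to 17 Mb it was 0 of 8, but the 6 shared regions stood lower in KO by a median of 10.4 points. The run began at 17 Mb when either OB Fam20c f/f replicate 1 or OB Fam20c KO replicate 3 was left out. On the right, the last f/f-only region (38781739 to 38782325) lay in Upk1b, a gene of the bladder lining, and the last shared region before it at the start of B4galt4, a galactosyltransferase. The steps from 39 to 42 Mb, in and before the long neuronal adhesion gene Lsamp, held only 5, 1 and 2 regions, so no border could be placed inside them. The 4 steps of 1 Mb from 42 to 46 Mb had 0 of 14, 0 of 15, 2 of 24 and 0 of 29 f/f-only regions, and shared regions stood higher in KO by a median of 1.54, 5.50, 3.70 and 2.22 points. Depleted steps came again further right, from 49 to 51 Mb, from 62 to 63 Mb and from 64 to 66 Mb. Among them the step from 50 to 51 Mb had 6 of 27 f/f-only regions and a ratio of 0.669, and that from 65 to 66 Mb 5 of 12 and 0.473.

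**Figure D4:**
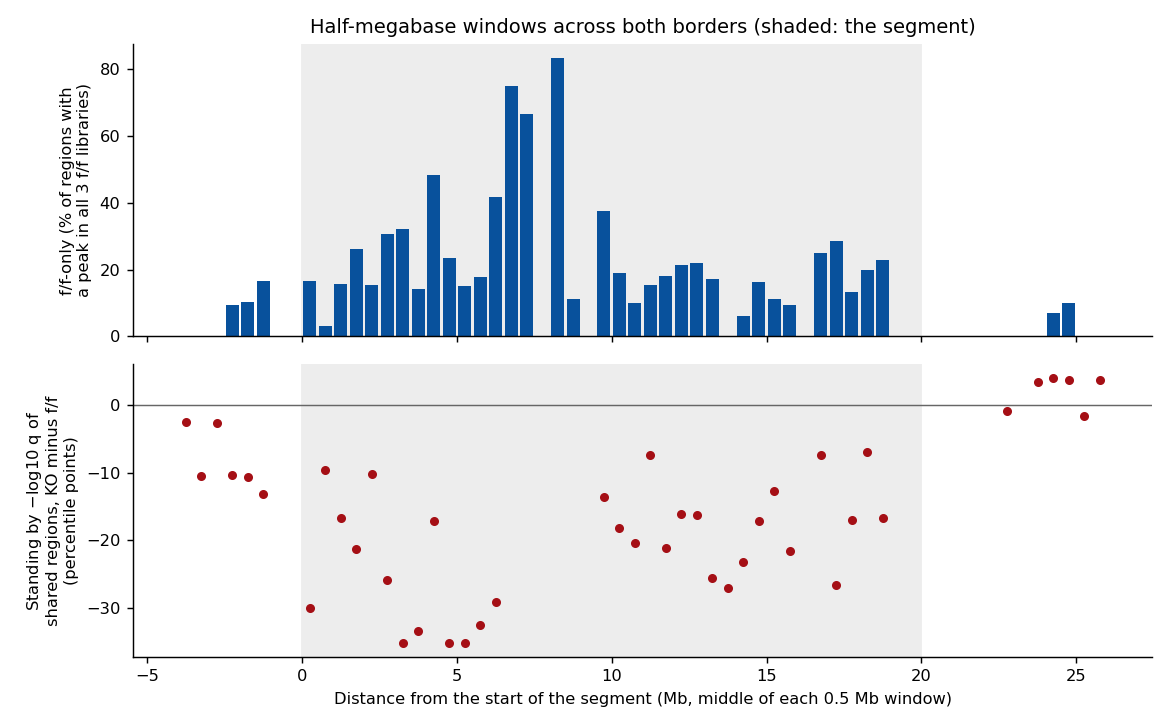
Windows of 0.5 Mb against the distance from the start of the segment in Mb: above, the share of f/f-only regions in % of regions listed in all 3 f/f libraries (windows with 5 or more), and below, the median difference in standing of shared regions, KO minus f/f, in percentile points (windows with 3 or more shared regions). Points are below 0 throughout the shaded segment and in the windows just left of it, and close to 0 or above it on the right; the space between 19 and 22 Mb from the start holds almost no regions.

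The strongest lost region covered the start of Cldn1 (26371281 to 26372238), the sole region of this gene. Its −log10 q was 76.1, 75.2 and 178 and its fold over background 12.6, 9.24 and 15.03 in the f/f lists, with a mean standing of 81.2, and no KO library listed it. The second covered the start of Maats1 (38341451 to 38342167), with −log10 q of 66.2, 58.5 and 106. The third lay inside Dlg1, which encodes a scaffold of cell polarity (31724051 to 31724638), with 52.0, 31.8 and 90.4. All 3 f/f libraries ranked these regions well above the middle of their lists. The other 7 of the 10 strongest had a standing of 56.0 to 61.6. They lay in Fgf12, Stxbp5l and P3h2 and next to Ccdc50, Osbpl11, Zdhhc19 and the predicted gene Gm41434, and none was within 1 kb of a gene start. With 32958 peaks per list, 8 of these 10 were still f/f-only, and those near Zdhhc19 and Gm41434 were not.

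The strongest kept regions were nearly all gene starts. The highest lay within 1 kb of a start of Bdh1 and of a start of Gm15743 (31429119 to 31430395). It had −log10 q of 456, 558 and 781 in f/f and 416, 550 and 120 in KO. Its fold was 11.6, 10.4 and 10.8 in f/f and 13.8, 13.8 and 11.99 in KO, so the KO libraries were higher by this measure. The start of Ephb3 (21204193 to 21205392) had a fold of 11.9, 9.20 and 9.67 in f/f and 13.2, 13.4 and 11.1 in KO. The start of Gsk3b, the kinase of the β-catenin destruction complex (38087801 to 38090031), had −log10 q of 357, 395 and 544 in f/f and 318, 514 and 125 in KO. The others were the starts of Acap2, Vps8, the ETS factor gene Etv5, the chaperone gene Dnajb11, the peptidase gene Lmln and the divergent pair Fyttd1 and Rubcn. Beside these, a region at an end of Adprh was kept. That gene had no known start, and the nearest known start was 6445 bp away. The difference in standing of the 10, KO minus f/f, was -3.57 to -1.498 points, which the top of the list bounds.

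All 12 lost promoter regions lay from 26 Mb on. They lay within 1 kb of a gene start, and not all of them covered it. The region at Gm41436, 377 bp wide, had its middle 1180 bp from the nearest start. The protein-coding genes were Cldn1, Fgf12 (2 regions), Plaat1, Atp13a4, Maats1 and Cd80. The others were Gm41436, Gm32356, Gm46565, 4930542C21Rik and Gm41453. Apart from those at Cldn1 and Maats1, the regions had a mean f/f standing of at most 50.2. At the start of Plaat1, a phospholipid-modifying enzyme, the −log10 q was 3.796, 3.001 and 12.3, and at that of Cd80, a ligand of T cell costimulation, 4.79, 4.58 and 9.96. Both were thus weak in every f/f list. Among 165 protein-coding genes with a known start, 115 had a start listed in all 3 f/f libraries. Of these starts 99 had a peak in all 6 libraries and 6 were f/f-only. The same count over the series was not made. Counted by region, 1.73% of promoters listed in all 3 f/f libraries were f/f-only over the series. On the other chromosomes 87.5% of them had a peak in all 6.

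At the level of genes, the span extended by 3 kb at each end was counted. Of 194 protein-coding genes 177 had a region, and 64 of these, or 36.2%, had 1 or more f/f-only regions, where 10.2% of genes did over the series. In 72, or 40.7%, every KO library had fewer regions than every f/f library, where 7.03% of genes did over the series, and in 0 every KO library had more. Fgf12, which encodes an intracellular FGF homologue, had most f/f-only regions, 6 of the 8 listed in all 3 f/f libraries. Its regions with a peak numbered 9, 14 and 20 in f/f and 2, 2 and 0 in KO. Atp13a4, a P-type ATPase gene, had 7, 5 and 6 in f/f and 0, 0 and 0 in KO, and all 5 of its regions shared by the f/f libraries were lost. Dlg1 lost 5 of 8, with 11, 13 and 12 regions in f/f and 3, 1 and 1 in KO, but its start kept a peak in all 6 libraries. Lpp, a focal adhesion gene of great length, lost 5 of 25. Vps8 lost 4 of 9 and P3h2, a collagen prolyl 3-hydroxylase gene, 4 of 11. In each of these genes the f/f and KO libraries did not overlap, which is no separate result, since the genes were picked for their f/f-only regions.

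Other genes with many regions lost none in all KO libraries. Mylk, the myosin light chain kinase gene, had 20 regions listed in all 3 f/f libraries and no f/f-only region. Its regions numbered 22, 22 and 27 in f/f and 20, 20 and 7 in KO. Itgb5, an integrin gene, had 14 such regions, with 15, 15 and 17 in f/f and 14, 13 and 10 in KO. Masp1, a complement protease gene, had 9, Slc12a8, a gene of the cation-chloride cotransporter family, 8 and Xxylt1, a xylosyltransferase gene, 7. In Slc12a8 and Xxylt1 the libraries of the groups touched or overlapped. Kalrn, with 78 regions, more than any other gene of the segment, lost 3 of 41. Kept regions of these genes still stood lower in KO, by a median of 15.9 points in Mylk, 25.6 in Itgb5 and 36.9 in Masp1.

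**Figure D5:**
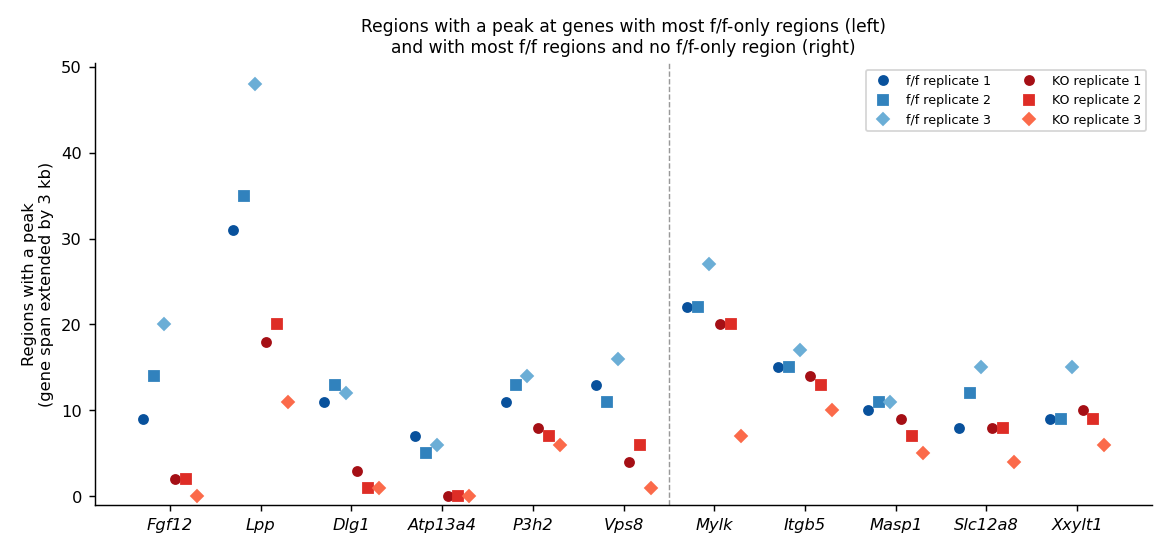
Number of regions with a peak in each library at the 6 genes with most f/f-only regions (left of the dashed line) and at the 5 genes with most f/f regions and no f/f-only region (right). Circles, squares and diamonds are replicates 1, 2 and 3, blue for f/f and red for KO. On the left every KO symbol is below every f/f symbol, from 0 against 5 or more in Atp13a4 to at most 20 against 31 or more in Lpp. The choice of these genes by their f/f-only regions favours this.

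The longest stretches without a region in all 3 KO libraries lay together around Fgf12. The first ran from 27390230 to 28928528 (1538 kb) over Fgf12 and Mb21d2, with 25, 31 and 39 regions with a peak in f/f and 5, 7 and 0 in KO. The second, from 26582447 to 27388373 (806 kb), held Il1rap, an interleukin-1 receptor subunit gene, the cilia gene Gmnc and Ostn, which encodes the bone- and muscle-derived peptide osteocrin. It had 19 regions in each f/f library and 2, 2 and 0 in KO. The third, from 28979593 to 29578935 (599 kb), held Plaat1, Atp13a5 and Atp13a4. It had 12, 17 and 14 regions in f/f and 0 in every KO library, and all 9 regions listed in all 3 f/f libraries were lost. The fourth, from 36072549 to 36597853 (525 kb), over the stefin cluster and Casr, the calcium-sensing receptor gene, was also thin in f/f, with 2, 9 and 7 regions. The longest stretch without a region in all 3 f/f libraries was 396 kb, in the same cluster. The next longest, of 327, 285, 255 and 245 kb, all lay within the first KO stretch, which was thus thin in f/f in places too.

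Genes of known pathways were counted from lists made with earlier results of these data known, so the counts describe the lists. They are of regions listed in all 3 f/f libraries, of which 21.0% were f/f-only over the whole segment. Of 7 Wnt, BMP and Notch genes, 3 had an f/f-only region (Senp2, Dlg1 and Gsk3b). The list lost 7 of 31 regions, or 22.6%, close to the segment. Of these 7, 5 were in Dlg1, and Senp2 and Gsk3b lost 1 each. All 6 genes with a known start kept it in all 6 libraries, among them Dvl3, an adaptor of Wnt receptors, and the BMP antagonist gene Chrd. Fstl1, a secreted glycoprotein gene, had 9 regions, and the 5 listed in all 3 f/f libraries were kept in all 6, at a standing 23.0 points lower in KO. Hes1, a Notch target, had 4 regions in each f/f library and 4, 4 and 3 in KO. Translation genes lost 3 of 26, or 11.5%, of which 2 were in Eif4a2, and kept 8 of 8 starts, including those of Eif4g1 and Eif2b5. Genes of adhesion and the cytoskeleton lost 14 of 131, or 10.7%, in 6 of 12 genes. Both shares of regions lie below that of the segment. In the adhesion list Kalrn lost 3 of 41, Mylk 0 of 20 and Itgb5 0 of 14. By gene this list was above the segment. An f/f-only region was found in 50.0% of its genes, against 36.2%. In 66.7%, against 40.7%, every KO library had fewer regions than every f/f library. For translation genes these shares were 22.2% and 33.3%.

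Genes of membrane traffic, lipid and iron lost 9 of 33, or 27.3%, in 6 of 10 genes, 4 of them in Vps8. The transferrin receptor gene Tfrc had 3 regions, and the 1 listed in all 3 f/f libraries, at its start, was kept in all 6. Transcription factor genes lost 4 of 31, or 12.9%, of which 2 were in Zfp148 and 1 each in Trp63 and Nr1i2, and Bcl6 and Etv5 lost none. Immune genes lost 7 of 21, or 33.3%, with 3 in Il1rap, 2 in Cd86 and 2 in Cd80. A list of genes for plasma proteins, most of them made by the liver but with Adipoq of fat cells among them, lost 3 of 16, or 18.8%. These were the sole regions of Hrg, Kng2 and Kng1 that all 3 f/f libraries listed, while Ahsg had none. Mucin and epithelial genes lost 2 of 11, or 18.2%, at Cldn1 and Trp63. The last list held Fgf12, Umps, an enzyme gene of pyrimidine synthesis, Ostn and Casr, and lost 6 of 10. All 6 were in Fgf12, which had 8 of the 10. Ostn had 3 regions, and the 1 listed in all 3 f/f libraries was kept in 2 KO libraries, while none of the 4 regions of Casr was listed in all 3.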

How the data were processed

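The data were the authors' deposited peak lists, 1 per ATAC-seq library, 3 from each of the lines OB Fam20c f/f and KO, grouped by the treatment in the sample labels. Per the methods of the study, the authors trimmed and aligned the reads to mm10 and called peaks with MACS2 2.1.2, keeping a q-value under 0.05. The deposited files hold a separate list for each library. Each deposited list gives a peak's position, a browser score, its −log10 p and −log10 q, its fold over local background, and the offset of its summit. Treatment of duplicate reads is not given in the sources used here. Read counts and the depth behind the peaks were not analysed here, so the length of a list, 32958 to 74797 peaks, stands for its sensitivity.

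Peaks were merged where they shared 1 bp. Gene spans came from RefSeq (GRCm38.p6), extended by 3 kb, and gene starts from the RefSeq promoter table of 27025 genes, with 165 of 194 protein-coding genes of the segment matched. The members, gene lists and rules were chosen with earlier results of these data known. Named regions were the 10 strongest lost and the 10 strongest kept by mean standing, the first and last lost, every KO-only region, all lost promoters, the 5 genes with most lost regions with ties and the 5 with most kept, and the longest KO gaps. Groups were compared inside the segment without a test, and outside it on chromosome 16 by an exact permutation test over 20 assignments. The authors' own test on reads needs counts and was not run. The alternatives were a stricter q, lists of equal length, summit windows, a peak in 2 of 3 libraries, other promoter and step definitions, each library left out and a replicate block. Merging and grouping were tested on simulated lists in which separate sites could not overlap. Of regions with the f/f-only pattern, 117 of 117 were recovered, which checks the code only. Python 3.11.15, numpy 2.4.6, pandas 2.3.3 and scipy 1.17.1 were used.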

Additional observations from a re-analysis of the deposited data

How the results depend on the processing

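Of 105 recomputed values, 30 moved beyond the limit set for their kind (1.5 times for a count, the binomial interval for a share, 1 SD for a mean of libraries, any change of a border), 75 did not, and none was reversed. The test outside the segment was judged by direction only. With only peaks of −log10 q of 5 or more, the f/f-only share was 18.1%, the KO-only regions 0, the KO to f/f ratio 0.715 and the difference in standing by −log10 q -31.7. With 32958 peaks per list, 95 regions were f/f-only, the ratio was 0.710, the promoter share 4.39% and the difference -34.4. With a peak in 2 or more of 3 libraries, there were 345 f/f-only and 5 KO-only regions, and the shares were 32.3% and, for distal regions, 36.0%, while on the other chromosomes the share was 11.6%. Windows of fixed width around the summits gave 6 KO-only regions. The depleted run began at 19.5 Mb in steps of 0.5 Mb, and it was the single step from 34 to 35 Mb when depletion was judged by standing. Leaving out each library in turn gave 179 to 266 f/f-only regions, shares of 21.1% to 27.7%, distal shares of 23.6% to 31.0%, 1 to 4 KO-only regions, a first step at 17 to 19 Mb and differences in standing of -29.3 to -21.5, the last without OB Fam20c KO replicate 3. The cause was not tested for any of these.

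The difference outside the segment was 7.29 with the replicate number as a replicate block (exact sign-flip permutation, p = 0.25, the smallest it can give). The numbers did not pair the libraries, since the deviations of same-numbered libraries correlated at 0.068, -0.10 and -0.12. It was 5.24 to 8.80 without each library and 14.0 with equal lists, always higher in KO. Whether a region that lost its peak lost reads could not be told from peak lists, and 1 short KO list limits what all 3 KO libraries share.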

Other observations

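The segment was not the sole long run of depleted steps. By the same rule, with 1 step that is not depleted allowed in between, a run of 20 Mb was found on chromosome 13 from 30 to 50 Mb, with 16 depleted steps, and one of 18 Mb on chromosome 4 from 85 to 103 Mb, with 17. The run on chromosome 16 had 20 depleted steps in 20 Mb. Only the longest run of each chromosome was kept, and among these the next was 6 Mb long, on chromosome 11 from 67 to 73 Mb. These runs were seen after the values were computed.

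The members lost from KO and those kept differed in place and size as well. The 178 f/f-only regions had a median width of 616 bp and a median distance of 21.7 kb from the nearest known gene start. Of them, 64.6% lay inside a gene. The 343 regions listed in all 6 libraries had a median width of 1157 bp and a median distance of 11.97 kb, and 75.2% lay inside a gene. A distance over 50 kb was found for 23.0% and 18.4%. The merged width grows with the number of peaks merged, so that it is not independent of the number of libraries with a peak. Of all 1629 members, 536 had a peak in a single library.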
